A study of Mus musculus with 21 samples.

Results

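The genes described here are 10 components of the microRNA (miRNA) pathway: Dgcr8, Drosha, Xpo5, Dicer1, Ago1, Ago2, Ago3, Tnrc6a, Tnrc6b and Tnrc6c. They are named components of the pathway, matched by symbol to 10 of 51467 genes in the count tables. All 10 passed the filter on low counts, as did 14518 genes in all. The cells were V6.5 mouse embryonic stem cells (ESCs) grown in serum and LIF with 2i, inhibitors that hold ESCs in the naive state. There were 3 wild-type cultures and 4 cultures that lack Ddx6, the helicase that links the miRNA silencing complex to translational repression and decapping. The Ddx6 knockout (KO) cultures came from 2 clones, 2 cultures each, made with Cas9 and a guide at the start of exon 7; 1 clone carried a single base insertion and the other a large deletion, and the labels name no other allele or agent for them. Each clone is a single line, so a clone's own history and the loss of Ddx6 cannot be told apart within it. Each culture gave a nascent library, from RNA labelled with 500 µM 4-thiouridine (4sU) for 30 min, and a total RNA library depleted of ribosomal RNA, split from the same extraction. The 14 libraries held between 2441639 and 3570192 counts for 4sU and between 5724179 and 7369651 for total RNA.

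In mammals a primary miRNA is cut in the nucleus by the Microprocessor, in which Dgcr8 binds the hairpin and the RNase III Drosha cleaves it. Xpo5 carries the precursor to the cytoplasm, Dicer1 cuts it to a duplex, and a strand is loaded into an Argonaute protein. Argonaute finds targets through the miRNA seed and recruits a GW182 scaffold, encoded by Tnrc6a, Tnrc6b and Tnrc6c, which brings in the deadenylases and, through them, Ddx6. In ESCs most miRNAs of the ESCC group (ESC-specific cell cycle) share the same seed, and loss of Dgcr8 or Dicer1 removes nearly all miRNAs and impairs differentiation.

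The mature sequences below show the seeds that dominate ESC miRNAs. They were taken from RefSeq (GRCm38.p6), and capitals mark bases 2 to 8. The first group is the ESCC seed, which 5 mature sequences in the table share and of which 4 are shown.
mmu-miR-291a-3p: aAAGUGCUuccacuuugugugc
mmu-miR-294-3p: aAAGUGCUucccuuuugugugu
mmu-miR-295-3p: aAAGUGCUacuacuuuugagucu
mmu-miR-302b-3p: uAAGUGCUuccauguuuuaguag
The second group is the miR-17 seed, which is shifted by a base against the ESCC seed.
mmu-miR-17-5p: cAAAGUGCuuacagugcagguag
mmu-miR-20a-5p: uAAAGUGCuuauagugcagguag
mmu-miR-93-5p: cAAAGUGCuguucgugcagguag

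Of the 10 genes, 3 carried a match to bases 2 to 8 of the ESCC seed (AGCACTT on the mRNA strand) in the 3′ UTR of their principal transcript. They were Ago3 with 3 matches, Tnrc6b with 2 and Tnrc6c with 1. Among 11958 tested protein-coding genes, 16.5% of 3′ UTRs held such a match. The 3′ UTRs of Ago3 (12742 bases) and Tnrc6b (11609 bases) are long, and 79.2% and 82.9% of 3′ UTRs of like length (from 0.8 of the length to the same factor above it) held a match, against 29.5% for the length of Tnrc6c (2588 bases). The sites in GRCm38 are shown because these genes encode the silencing machinery that reads such sequences. Capitals mark the seed match, with the A after it where there is one.
Ago3, chr4:126341680-126341709, minus strand: caggcggtgtgAGCACTTggagcccagcca
Ago3, chr4:126338300-126338329, minus strand: actttaattgcAGCACTTAagaggcagagg
Ago3, chr4:126335504-126335533, minus strand: caaatgttaagAGCACTTAttgtgctgtca
Tnrc6b, chr15:80931317-80931346, plus strand: gggaacatgctAGCACTTgtgtgatatccc
Tnrc6b, chr15:80935707-80935736, plus strand: ccttttatcccAGCACTTgagaggcagaag
Tnrc6c, chr11:117762123-117762152, plus strand: gcggccggccgAGCACTTggacgtggtggt

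For the miR-17 seed (GCACTTT), 6 of the 10 genes held a match, Ago1, Ago2, Tnrc6a, Tnrc6b and Tnrc6c with 1 each and Ago3 with 3, against 13.9% of all 3′ UTRs. Of 3′ UTRs of like length, 39.1% held such a match for Ago1, 70% for Ago2, 66.7% for Ago3, 22.1% for Tnrc6a, 68.6% for Tnrc6b and 24.9% for Tnrc6c. The site in Tnrc6a is shown since that gene had the largest change of the 10 in total RNA.
Tnrc6a, chr7:123193608-123193637, plus strand: ggacgggccctGCACTTTgaacaggctttc
A let-7 seed match (CTACCTC) was found in Ago2, with 3, and in Ago3, with 1, against 9.9% of all 3′ UTRs and 52.5% and 58.3% of those of like length. None of these matches to bases 2 to 8 was found in the 3′ UTRs of Dgcr8, Drosha, Xpo5 and Dicer1. Of 3′ UTRs of like length, 18.2%, 1.63%, 15.5% and 38.1% held an ESCC match, so most held none. Matches to bases 2 to 7 followed by an A are not included above. For the ESCC seed, Dicer1 held 1 of that kind and Ago1 held 2. Ago1, Ago2, Ago3, Tnrc6a and Tnrc6b held such matches for the miR-17 or let-7 seed. A match in letters is not a measured site, and binding was not measured here.

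The Dgcr8 transcript itself contains hairpins of the kind that its product binds. The miR-3618 hairpin, listed as Gm24572, lies in an exon at chr16:18284550-18284637 outside the coding sequence, and Mir1306 lies at chr16:18284239-18284317 within it, both on the minus strand with Dgcr8. Their RefSeq mature arms are shown with bases 2 to 8 in capitals.
mmu-miR-3618-5p: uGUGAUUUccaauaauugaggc
mmu-miR-3618-3p: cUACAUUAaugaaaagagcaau
mmu-miR-1306-5p: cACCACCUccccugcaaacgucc
mmu-miR-1306-3p: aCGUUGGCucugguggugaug
The count table lists both hairpins as genes of their own with 0 counts over the 14 libraries. Gm24572 shares 88 and Mir1306 79 exonic bases with Dgcr8 on the same strand, where a read cannot be assigned to a single gene. Tnrc6b shares 82 bases with Mir5113 in the same way, also with 0 counts. In Gencode M21, Dgcr8 also shares 327 exonic bases with Gm49776, Tnrc6a 143 with Gm45846 and Drosha 72 with Gm47288, on the same strand. On the opposite strand, Dgcr8 shares 825 with Trmt2a and Ago2 shares 219 with Chrac1.

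Levels are given as CPM, read counts brought to a common library size with TMM factors. Changes are log2 of Ddx6 KO over wild type with the SE, and the total change is the sum of the 4sU change and the change in total over 4sU, a relative measure of mRNA stability. The test was the quasi-likelihood test of edgeR over all tested genes, with Benjamini-Hochberg adjusted p values and a threshold of 0.05. P values measure the spread between these cultures, since nothing states how separately they were grown.

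Ddx6 itself was checked first. Its total RNA was 334, 384 and 392 CPM in wild type, 57.3 and 67.8 CPM in clone 1 and 23.1 and 21.5 CPM in clone 2. The decrease was -3.12 ± 0.32 (adjusted p = 9.23e-06), while the 4sU change of -0.41 ± 0.32 did not pass the test (adjusted p = 0.347). Clone 2 held less Ddx6 total RNA than clone 1 (log2 difference -1.49 ± 0.11, adjusted p = 9.73e-16), so the clones were not equal in what remained of the targeted transcript.

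The labelled cell type was checked on 6 pluripotency genes, all tested, whose summed total RNA was 3065 to 3180 CPM in wild type and 3576 to 3796 CPM in Ddx6 KO. Mean total RNA of Nanog was 635 and 957 CPM, while Sox2, at 469 and 454 CPM, overlapped between groups. In 4sU RNA, Sox2 lay below wild type in all Ddx6 KO cultures (means 1538 and 982 CPM). Of 5 fibroblast markers, 3 were at 0 in every wild-type total library and 1 in every Ddx6 KO library, and their sum was 3.34 to 5.74 CPM against 10.7 to 12.6 CPM. The sum of 5 markers of differentiated cells was 20.7 to 25.97 CPM in wild type and 20.2 to 24.5 CPM in Ddx6 KO. Genes on chromosome 6 stood apart, with a median change of 0.53 in 4sU and 0.43 in total RNA over 735 genes, and medians in total RNA of 0.38 in clone 1 and 0.41 in clone 2. Nanog is on this chromosome. None of the 10 genes is on it, and medians on their own 7 chromosomes lay between -0.16 and -0.11 in total RNA. The part of these differences in the results was not tested. In such bulk samples, fewer cells that express a gene and less RNA per cell cannot be told apart.

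Across the 10 genes, 4sU RNA changed for 4, with Ago3, Tnrc6a and Tnrc6b higher and Ago2 lower in Ddx6 KO, where 41.5% of all tested genes passed, 20.5% higher and 21% lower. Total RNA changed for 7, with Ago3, Tnrc6a and Tnrc6b higher and Drosha, Xpo5, Ago2 and Tnrc6c lower, against 50.5% of all genes, 19.5% higher and 31% lower. Total over 4sU changed for 2, higher for Tnrc6a and lower for Ago3, against 12.3% of all genes, 3.77% higher and 8.51% lower. None of the 10 passed a 2-fold change in any of these comparisons by edgeR, and DESeq2 and limma-voom gave 0 as well, while 10.9%, 10.1% and 1.08% of all genes did. The counts of changed genes were thus near those of all genes in 4sU RNA, and the median change was 0.00 in 4sU, -0.01 in total and -0.12 in total over 4sU, beside 0.00, -0.10 and -0.09 for all tested genes.

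**Figure D1:**
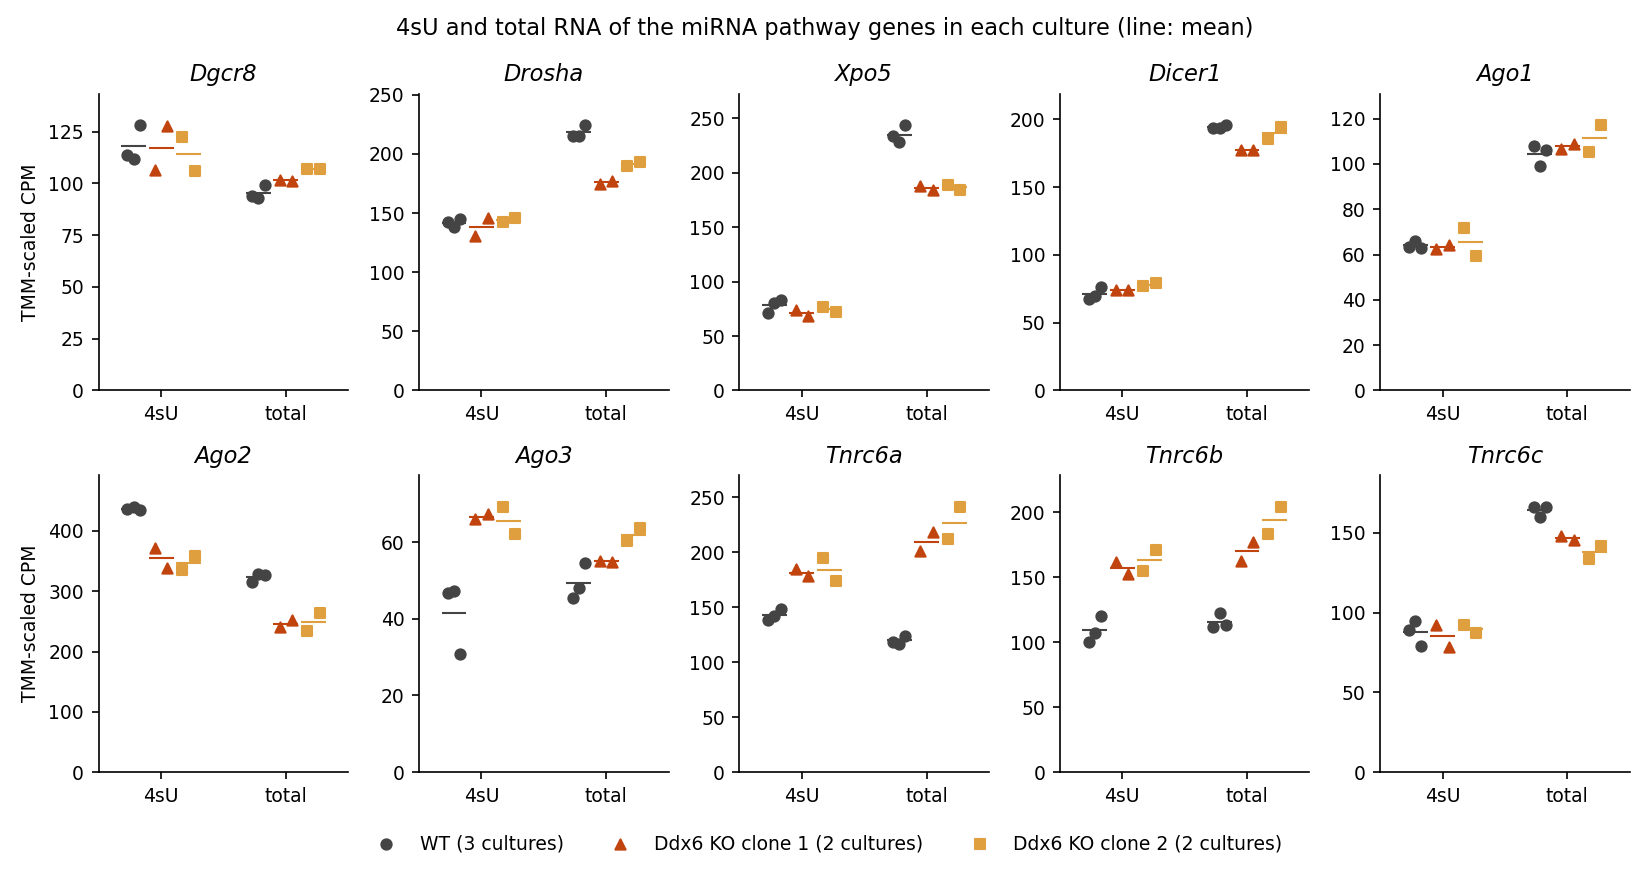
TMM-scaled CPM (vertical axis, from 0) of each gene in 4sU and total RNA, 1 point a culture, for 3 wild-type cultures and 2 cultures of each Ddx6 KO clone, with a line at the mean of wild type and of each clone. Tnrc6a and Tnrc6b sit above wild type in all 4 Ddx6 KO cultures in both RNA pools, whereas Ago2 sits below.

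Scaling mattered for the small changes. With library size only in place of TMM, the median of all genes moved from 0.00 to 0.21 in 4sU and from -0.10 to 0.06 in total RNA. The split of calls over all genes moved from 2977 higher and 3054 lower to 5274 and 1840 in 4sU, and from 2829 higher and 4505 lower to 4273 and 2817 in total RNA. The 10 genes then gave 6 higher and 0 lower in 4sU and 5 higher and 2 lower in total RNA. Set against the median of all genes, the total RNA change was 0.96 for Tnrc6a, 0.75 for Tnrc6b, 0.34 for Ago3, 0.23 for Dgcr8 and 0.17 for Ago1. It was 0.02 for Dicer1, -0.10 for Tnrc6c, -0.15 for Drosha, -0.24 for Xpo5 and -0.29 for Ago2.

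Of the 4 biogenesis genes, 0 passed in 4sU RNA by edgeR, DESeq2 and limma-voom, with 0 at an unadjusted p under 0.05, and 2 fell in total RNA. With library size only, edgeR called Dicer1 (0.30, adjusted p = 0.00266) and Drosha (0.20, adjusted p = 0.0139) higher in 4sU RNA. Drosha, the nuclease of the Microprocessor, was 215, 215 and 224 CPM in wild-type total RNA and 175, 177, 190 and 193 CPM in Ddx6 KO. The groups did not overlap, and the change was -0.25 ± 0.06 (adjusted p = 0.00024), a fall that was lost with library size only (-0.09, adjusted p = 0.183) and with no filter on low counts (-0.15, adjusted p = 0.0738). Its 4sU RNA was 138 to 145 CPM in wild type and 131 to 146 CPM in Ddx6 KO, so the ranges overlapped. Total over 4sU of Drosha was 0.60, 0.64 and 0.63 on the log2 scale in wild type and 0.42, 0.28, 0.41 and 0.40 in Ddx6 KO, all 4 below, but the change of -0.25 ± 0.09 did not pass the test (adjusted p = 0.0647), although it passed with library size only (-0.29, adjusted p = 0.0183).

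Xpo5, the exportin of precursor miRNAs, had 234, 228 and 244 CPM in wild-type total RNA and 188, 184, 189 and 184 CPM in Ddx6 KO. It fell by 0.34 ± 0.06 (adjusted p = 1.45e-06), a call that all 18 alternatives gave. Its 4sU RNA, 71.3 to 83.1 CPM in wild type and 68.2 to 76.6 CPM in Ddx6 KO, overlapped between groups (change -0.11 ± 0.08, adjusted p = 0.297). Total over 4sU of Xpo5 was 1.71, 1.4995 and 1.55 in wild type and reached from 1.30 to 1.43 in Ddx6 KO without overlap, with a change of -0.22 ± 0.10 that did not pass (adjusted p = 0.143). The counted model of Xpo5 spans 3709 exonic bases while the principal transcript in a later annotation of the same build has 5081, so the level per kb of Xpo5 rests on the shorter model.

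Dicer1, which cuts precursors to the duplex, had 193, 193 and 196 CPM in wild-type total RNA and 177, 177, 186 and 194 CPM in Ddx6 KO. The 4 values reached into the wild-type range, and the change of -0.08 ± 0.06 did not pass (adjusted p = 0.249). Its 4sU RNA was 67.3 to 76.6 CPM in wild type and 74.0 to 79.1 CPM in Ddx6 KO (0.09 ± 0.08, adjusted p = 0.411). In wild type, total over 4sU was 1.52, 1.46 and 1.35, and all 4 Ddx6 KO cultures lay from 1.249 to 1.29, again without overlap and without passing the test (-0.17 ± 0.10, adjusted p = 0.301).

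Dgcr8 differed from its partner Drosha in direction. Its total RNA was 94.0, 92.7 and 99.4 CPM in wild type and 102, 101, 107 and 107 CPM in Ddx6 KO, all 4 above. The change of 0.13 ± 0.07 did not pass (adjusted p = 0.117), although it passed with library size only (0.28, adjusted p = 0.000388) and with 3 other scalings or filters. Its 4sU RNA ranged from 112 to 128 CPM in wild type and from 106 to 128 CPM in Ddx6 KO. The log2 ratio of Dgcr8 over Drosha reads per kb within a culture, which no library scaling can change, was -1.18 ± 0.02 in wild-type total RNA and -0.80 ± 0.03 in Ddx6 KO (SD, n = 3 and 4), with a difference of 0.38 and no overlap. In 4sU RNA the same ratio was -0.25 ± 0.08 and -0.28 ± 0.12 and the groups overlapped. The Tnrc6 and Ago pairs taken in this way did not overlap in total RNA either. Ratios of other genes were not computed, so the separation has no background.

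**Figure D2:**
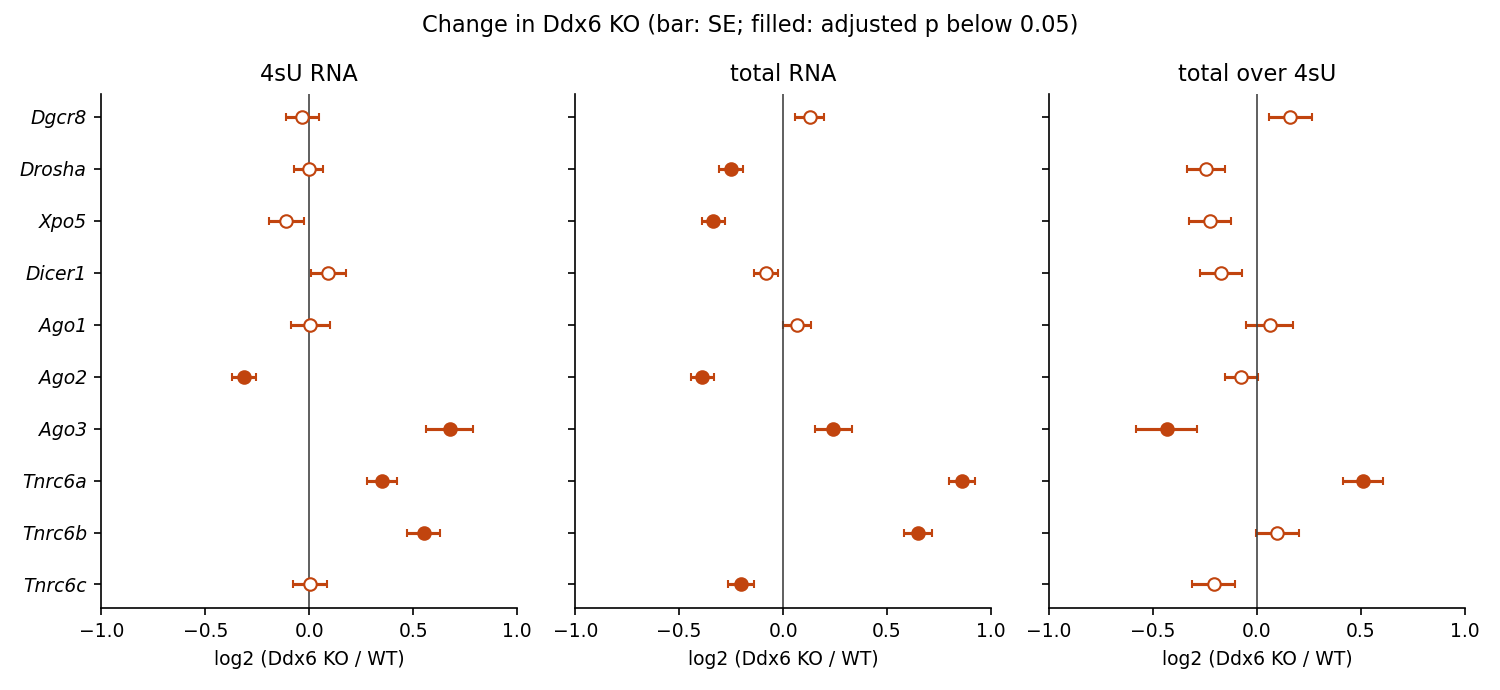
Log2 change of Ddx6 KO over wild type (horizontal axis) for each gene in 4sU RNA, total RNA and total over 4sU, with the SE as a bar, filled where the adjusted p was below 0.05. Filled points are 4 in 4sU, 7 in total RNA and 2 in total over 4sU.

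The Argonaute genes changed in different directions. Ago2, the Argonaute that can slice a fully matched target, had 436, 439 and 434 CPM in wild-type 4sU RNA and 372, 338, 335 and 359 CPM in Ddx6 KO. The 4sU decrease was -0.31 ± 0.06 (adjusted p = 8.73e-06), lost only with library size only (-0.11, adjusted p = 0.115) among 18 alternatives. Total RNA of Ago2 was 316, 328 and 327 CPM in wild type and 240, 251, 233 and 264 CPM in Ddx6 KO, a fall of -0.39 ± 0.05 (adjusted p = 2.07e-08) that passed in all 18. Both pools lay below wild type in all 4 cultures, and total over 4sU did not differ beyond its error (-0.08 ± 0.08, adjusted p = 0.621).

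Ago3, a neighbour of Ago1 on chromosome 4, had the largest 4sU increase of the 10 genes. Its 4sU RNA was 46.6, 47.3 and 30.9 CPM in wild type and 66.0, 67.3, 69.1 and 62.1 CPM in Ddx6 KO, a change of 0.67 ± 0.11 (adjusted p = 1.75e-06). Wild-type replicate 3 was low in both sequencing runs, at 27.3 and 30.7 CPM of the run against 43.1 to 44.1 CPM in replicates 1 and 2, on 47 and 39 reads. Without it the 4sU increase was 0.49 and still passed.

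Total RNA of Ago3 was 45.4, 48.1 and 54.4 CPM in wild type and 55.1, 54.8, 60.1 and 63.7 CPM in Ddx6 KO. The groups were separated by less than 1 CPM, and the rise of 0.24 ± 0.09 (adjusted p = 0.0206) was lost without wild-type replicate 1 (0.19, adjusted p = 0.126), without replicate 2 (0.22, adjusted p = 0.078) and with clone 1 only (0.17, adjusted p = 0.18). Total over 4sU of Ago3 was -0.04, 0.02 and 0.81 in wild type and -0.26, -0.29, -0.20 and 0.04 in Ddx6 KO, which overlapped. The fall of -0.43 ± 0.15 (adjusted p = 0.0375) passed in 9 of 19 alternatives and was -0.17 (adjusted p = 0.552) without wild-type replicate 3, so it rested on that culture. With the 2 libraries of each culture treated as a pair the value was -0.44 (adjusted p = 0.0234).

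Ago1 showed no change that passed. It had 63.4, 65.8 and 62.9 CPM in wild-type 4sU RNA and 62.7, 64.4, 71.5 and 59.2 CPM in Ddx6 KO. In total RNA it had 108, 99.1 and 106 CPM and 107, 109, 105 and 117 CPM, and the groups overlapped in both pools. Its total RNA change was 0.07 ± 0.07 (adjusted p = 0.418), and only scaling by library size (0.22, adjusted p = 0.00418) or TMM within each assay (0.16, adjusted p = 0.0423) took it past the threshold. Ago4, the remaining mouse Argonaute, was near the filter and did not pass either (-0.68 ± 0.32 in total RNA, adjusted p = 0.0688).

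The GW182 genes held the largest rises in total RNA. Tnrc6a had 119, 117 and 124 CPM in wild-type total RNA and 201, 218, 212 and 241 CPM in Ddx6 KO, a 1.82-fold increase (log2 0.86 ± 0.06, adjusted p = 1.03e-17). Its 4sU RNA was 139, 142 and 149 CPM in wild type and 185, 178, 195 and 173 CPM in Ddx6 KO (0.35 ± 0.07, adjusted p = 5.51e-05). Every Ddx6 KO culture lay above every wild-type culture in both pools.

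Total over 4sU of Tnrc6a was -0.22, -0.28 and -0.26 in wild type and 0.12, 0.29, 0.12 and 0.47 in Ddx6 KO. All Ddx6 KO values thus lay above all wild-type values, and the rise was 0.51 ± 0.10 (adjusted p = 0.000111). Where 0 lies on this scale is set by the scaling of both assays, so the sign of a ratio has no meaning of its own. Among all tested genes, 3.77% rose in this measure, and the Tnrc6a value was above 90.7% of them. All 3 Tnrc6a changes passed in every alternative run, between 0.44 and 0.60 for total over 4sU over 19 alternatives, between 0.83 and 1.02 for total RNA and between 0.32 and 0.56 for 4sU over 18. The value of 1.02, with library size only, was the single case past 2-fold.

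Tnrc6b rose in both pools as well. It had 100, 107 and 120 CPM in wild-type 4sU RNA and 161, 153, 155 and 171 CPM in Ddx6 KO (0.55 ± 0.08, adjusted p = 5.84e-08). Total RNA was 112, 123 and 113 CPM in wild type and 162, 177, 183 and 204 CPM in Ddx6 KO (0.65 ± 0.07, adjusted p = 2.88e-12). Both calls held in all 18 alternatives. Total over 4sU was -0.08 to 0.19 in wild type and 0.01 to 0.25 in Ddx6 KO, and its change did not pass (0.10 ± 0.10, adjusted p = 0.619).

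Tnrc6c did not follow its paralogues. It had 166, 160 and 166 CPM in wild-type total RNA and 148, 146, 134 and 142 CPM in Ddx6 KO, all 4 below (-0.20 ± 0.06, adjusted p = 0.00472). This fall did not pass with library size only (-0.05, adjusted p = 0.558), TMM within each assay (-0.11, adjusted p = 0.132), no filter on low counts (-0.10, adjusted p = 0.321) or clone 1 only (-0.14, adjusted p = 0.11). Its 4sU RNA was 89.3, 94.6 and 79.1 CPM in wild type and 92.3, 78.4, 92.6 and 87.5 CPM in Ddx6 KO. The 4sU change of 0.00 ± 0.08 did not pass (adjusted p = 0.977), although 1 of 18 alternatives gave a call (adjusted p = 0.0326).

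Because paralogues are read in the same library, their shares are free of library scaling. Shares were taken over reads per kb of counted exonic length, and each was compared with a two-sided exact permutation test over 3 and 4 cultures, whose smallest p is 0.0571. In total RNA, Tnrc6c was the most abundant of the 3 Tnrc6 genes in wild type, with 45.4% ± 0.74 (SD, n = 3), and fell behind Tnrc6a in Ddx6 KO, with 29.4% ± 2.1 (SD, n = 4). Tnrc6a held 37.5% ± 0.69 in wild type and 50.7% ± 1.2 in Ddx6 KO, and Tnrc6b held 17.1% ± 1.0 and 19.9% ± 1.0. Tnrc6c exceeded Tnrc6a in all 3 wild-type cultures and Tnrc6a exceeded Tnrc6c in all 4 Ddx6 KO cultures. In 4sU RNA the Tnrc6a share was 52.6% ± 1.3 and 54.4% ± 1.7 and overlapped between groups (exact permutation p = 0.286).

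Among Ago1, Ago2 and Ago3, Ago2 made up 57.3% ± 1.3 of total RNA in wild type but 48.8% ± 0.71 in Ddx6 KO. Ago1 held 35.1% ± 1.5 and 41.0% ± 0.20, and Ago3 held 7.66% ± 0.59 and 10.1% ± 0.58. In 4sU RNA, Ago2 held 73.4% ± 1.2 and 66.0% ± 2.4 and Ago3 held 6.14% ± 1.3 and 10.9% ± 0.54. Of the 12 comparisons of shares, 11 separated all Ddx6 KO from all wild-type cultures, which gives the smallest exact permutation p of 0.0571 and 0.0623 when adjusted over the 12, so none could pass 0.05 in this design. The 3 shares of a family add to 100%, so a rise in 1 gene lowers the others and the 12 comparisons are not independent. In level, 41.7% of all tested genes did not overlap in 4sU and 52.4% in total RNA. Shares in other gene families were not computed, so the 11 has no background of its own.

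**Figure D3:**
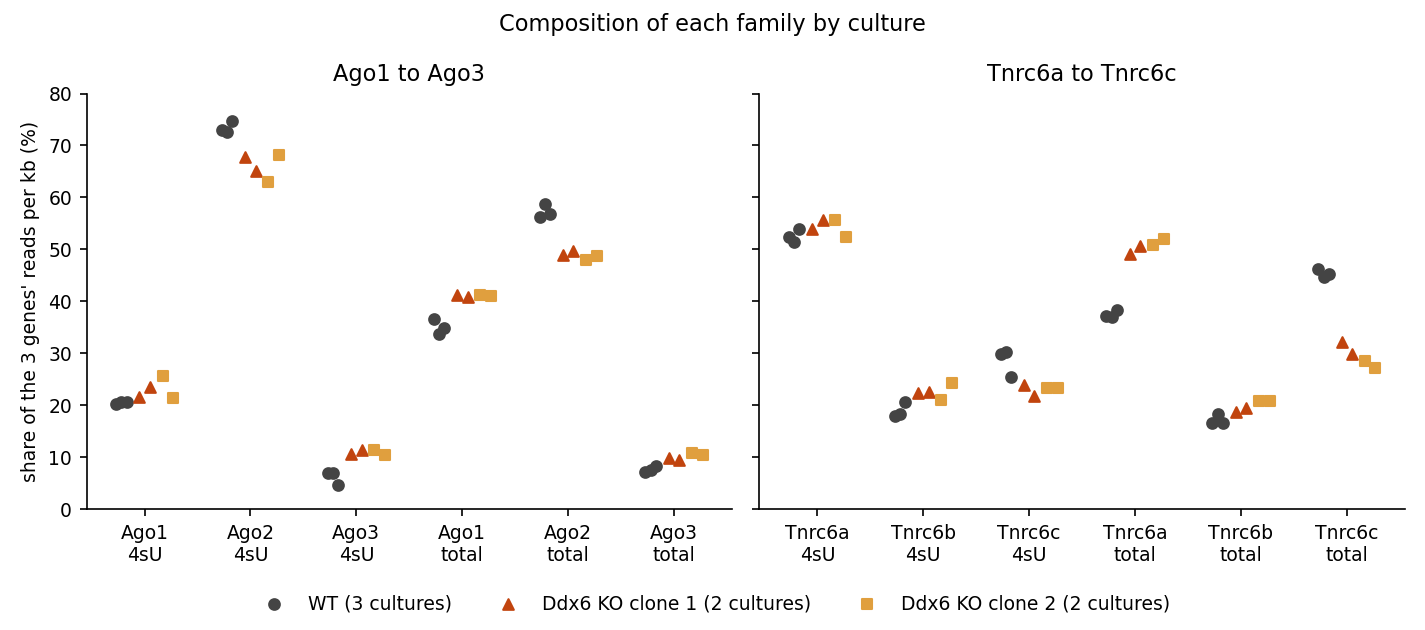
Share (vertical axis, percent) of each paralogue in the reads per kb of its family, for Ago1 to Ago3 and Tnrc6a to Tnrc6c, in 4sU and total RNA, 1 point a culture. In total RNA the Tnrc6a and Tnrc6c points exchange places between wild type and Ddx6 KO.

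Levels between genes were compared per kb of counted exonic length. In wild-type total RNA the order was Xpo5 (63.4 ± 2.1 CPM per kb, SD, n = 3), Drosha (47.7 ± 1.1), Ago2 (23.6 ± 0.50), Dgcr8 (21.0 ± 0.78), Dicer1 (19.7 ± 0.13), Tnrc6c (17.7 ± 0.38), Tnrc6a (14.6 ± 0.47), Ago1 (14.5 ± 0.66), Tnrc6b (6.69 ± 0.34) and Ago3 (3.16 ± 0.30). Only Tnrc6a and Ago1 overlapped among neighbours in that order. The order rests on counted exonic length, and annotated 3′ UTRs are 11064 bases long for Ago2, 12742 for Ago3 and 11609 for Tnrc6b. Which 3′ ends these cells use was not measured, and the SD does not include this. The family shares above rest on the same lengths. In Ddx6 KO, Xpo5 (50.3 ± 0.67 CPM per kb, SD, n = 4) and Drosha (40.2 ± 2.0) still led, and Tnrc6a moved from rank 7 to rank 3 (26.6 ± 2.1), while Ago2 moved from rank 3 to rank 6 (18.05 ± 0.99) and overlapped with Dicer1 (18.6 ± 0.82).

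In the nascent pool, Ago2 (31.8 ± 0.19 CPM per kb) and Drosha (31.0 ± 0.74) led in wild type, followed by Dgcr8 (26.02 ± 2.0) and Xpo5 (21.1 ± 1.7). Ago3 was last in both genotypes, at 2.67 ± 0.59 CPM per kb in wild type and 4.24 ± 0.19 in Ddx6 KO. Drosha and Dgcr8, which act in the same complex, were thus nearer to each other in 4sU than in total RNA.

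Total over 4sU placed the 10 genes over a wide span of relative stability. In wild type, Xpo5 (1.58 ± 0.11, SD, n = 3) and Dicer1 (1.44 ± 0.09) were above 92.2% and 89.4% of all tested genes. Tnrc6c (0.90 ± 0.16), Ago1 (0.70 ± 0.10) and Drosha (0.62 ± 0.02) lay above 75.9%, 69.6% and 67.2%. Tnrc6b (0.09 ± 0.15) and Ago3 (0.26 ± 0.47) were near the median of all genes, which was 0.08. Tnrc6a (-0.25 ± 0.03), Dgcr8 (-0.30 ± 0.05) and Ago2 (-0.43 ± 0.03) were above 41.2%, 40.0% and 37.0%.

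In Ddx6 KO, Tnrc6a moved to 0.25 ± 0.17 (SD, n = 4), above 57.6% of genes. Xpo5 (1.35 ± 0.05) and Dicer1 (1.27 ± 0.02) stayed above 91.6% and 89.7%. All 4 Ddx6 KO cultures lay apart from all wild-type cultures for 4 of the 10 genes, above for Tnrc6a and below for Drosha, Xpo5 and Dicer1, where 22.9% of all tested genes did not overlap, 7.44% above and 15.4% below. In 4sU and total RNA the groups did not overlap for 4 and 8 of the 10 genes. In 4sU 3 lay above and 1 below, against 41.7% of all genes, 20.5% above and 21.2% below. In total RNA 4 lay above and 4 below, against 52.4% of all genes, 20.4% above and 32% below.

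**Figure D4:**
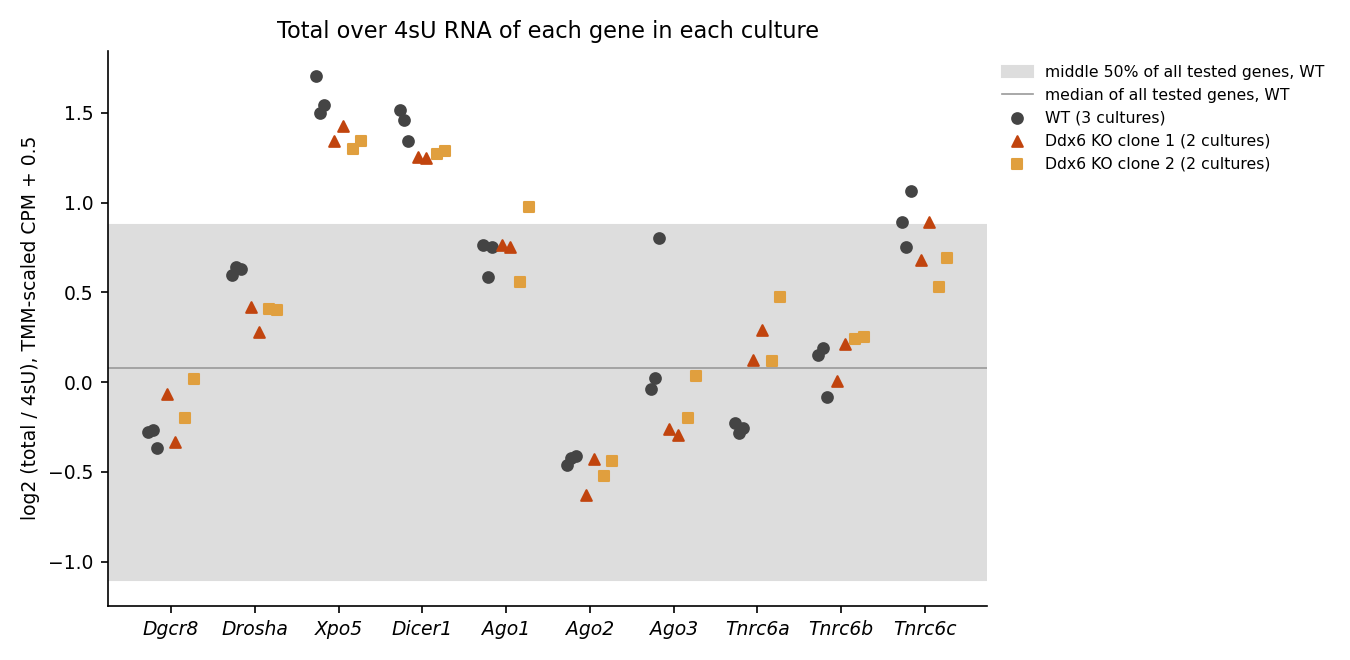
Log2 of total over 4sU RNA (vertical axis) for each gene, 1 point a culture, with the median and the middle 50% of all tested genes in wild type as a line and a grey band. Xpo5 and Dicer1 lie above the band in every culture, and Tnrc6a lies higher in every Ddx6 KO culture than in every wild-type culture.

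No difference between the clones passed the test for any of the 10 genes. Clone 2 minus clone 1 ranged from -0.04 to 0.07 in 4sU, from -0.09 to 0.19 in total RNA and from -0.16 to 0.20 in total over 4sU, with 0 of 10 past the threshold in edgeR, DESeq2 and limma-voom. At an unadjusted p under 0.05 there was 1, Tnrc6b in total RNA (0.19 ± 0.08, adjusted p = 0.629). Over all tested genes, 0.165%, 0.296% and 0.00689% differed between clones. With 2 cultures a clone, an equal response is not shown by this.

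By Pearson correlation of log2 CPM over the 14 libraries, the genes most like Tnrc6a, which had the smallest adjusted p in total over 4sU, were Cap2 (r = 0.96), Il1r1 (r = 0.95) and Loxl4 (r = 0.95). These values share libraries and scaling and are given as a description. Loxl4, for example, had 2.74 ± 0.82 CPM in wild-type total RNA and 37.4 ± 2.1 CPM in Ddx6 KO (SD, n = 3 and 4), a far larger change than that of Tnrc6a.

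Partner genes of the pathway were taken from 4 lists with 40 genes in all, every one of which was tested. In 4sU RNA 11 rose and 8 fell, in total RNA 9 rose and 16 fell, and in total over 4sU 2 rose and 9 fell. The shares called were 47.5%, 62.5% and 27.5%, beside 41.5%, 50.5% and 12.3% of all genes, and the median changes were -0.03, -0.15 and -0.14.

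Of 10 cofactors of primary miRNA processing and export, none rose and 4 fell in 4sU RNA, and none rose and 6 fell in total RNA (median -0.20). The shares called were 40% and 60%, beside 41.5% and 50.5% of all genes. By direction, 20.5% of all genes rose and 21% fell in 4sU RNA, and 19.5% rose and 31% fell in total RNA. Hnrnpa1, an RNA-binding protein that acts on primary miRNAs, fell by 0.79 ± 0.08 in total RNA (adjusted p = 2.01e-12), and Ran, the GTPase that loads exportins such as Xpo5, fell by 0.42 ± 0.05 (adjusted p = 1.29e-09). The splicing factor Srsf3 fell by 0.36 ± 0.06 (adjusted p = 1.75e-06). Ddx5, a helicase of the large Drosha complex, fell by 0.35 ± 0.05 in 4sU RNA (adjusted p = 1.72e-07) and rose in total over 4sU (0.36 ± 0.07, adjusted p = 0.000458), with total RNA at 574 ± 16 and 579 ± 14 CPM. Hnrnpa1 and Ran have processed copies elsewhere in the genome, and reads that matched several places were not counted, so their values are uncertain, as are those of Hspa8 and Hsp90ab1 below.

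Of 8 Dicer partners and loading chaperones, 2 rose and 4 fell in total RNA, where 19.5% of all genes rose and 31% fell. The chaperones Hspa8 (-0.44 ± 0.05, adjusted p = 3.75e-10) and Hsp90ab1 (-0.41 ± 0.05, adjusted p = 4.11e-09) and the co-chaperone Ptges3 (-0.43 ± 0.08, adjusted p = 3.93e-05) fell. Hsp90aa1 rose in 4sU RNA (0.49 ± 0.06, adjusted p = 3.48e-10) and fell in total over 4sU (-0.34 ± 0.08, adjusted p = 0.00238), a call that clone 1 alone did not give. Its total RNA change of 0.15 did not pass without wild-type replicate 1 or without replicate 3. Adar rose by 0.18 ± 0.07 in total RNA (adjusted p = 0.0228), which 4 alternatives did not give. The double-stranded RNA-binding partners of Dicer1, Tarbp2 and Prkra, gave -0.22 ± 0.15 and -0.25 ± 0.17 in total RNA and did not pass (adjusted p = 0.236 and 0.235).

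**Figure D5:**
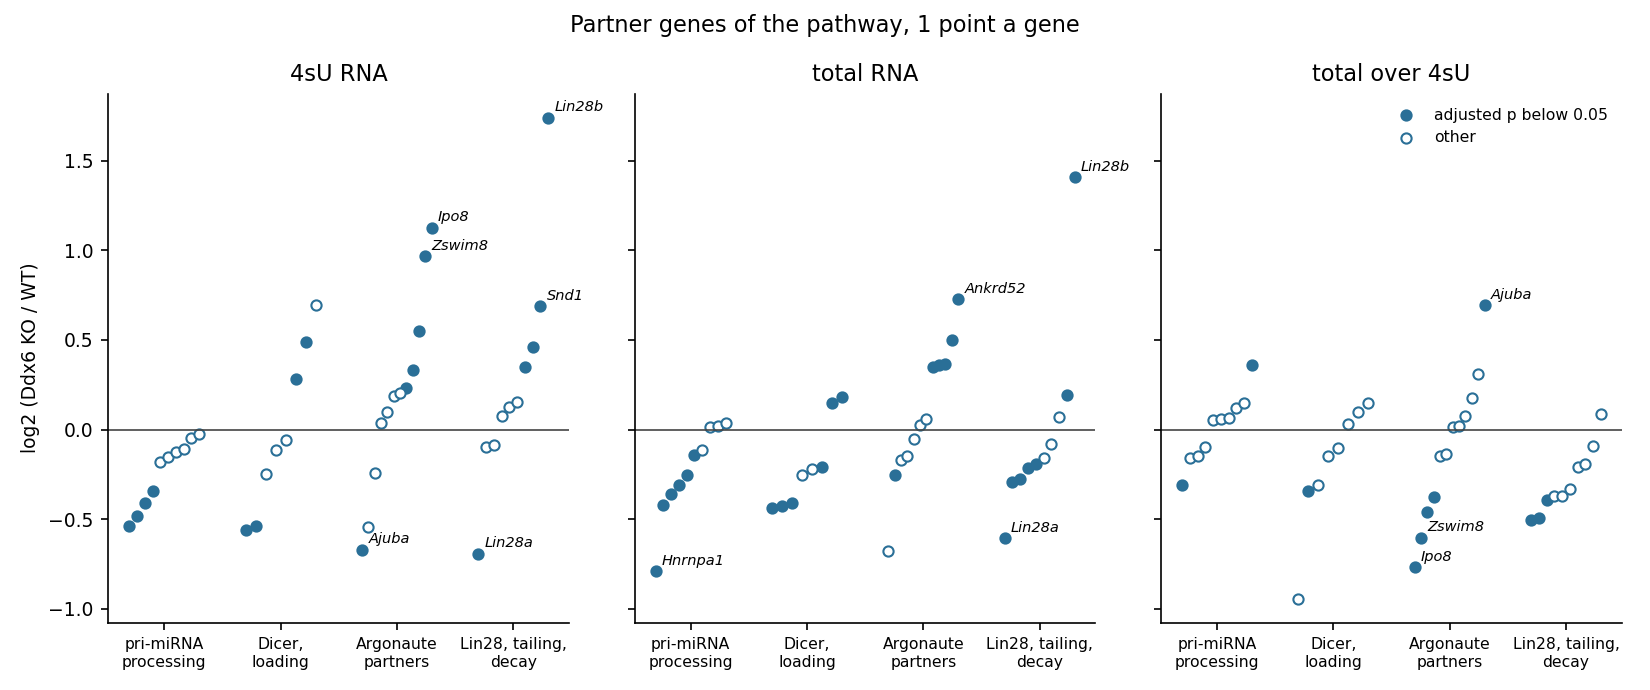
Log2 change of Ddx6 KO over wild type (vertical axis) for 40 partner genes in 4 lists, 1 point a gene, in 4sU RNA, total RNA and total over 4sU, filled where the adjusted p was below 0.05. No cofactor of primary miRNA processing passed upward in 4sU or total RNA, where 20.5% and 19.5% of all genes did. In those pools Lin28b and Lin28a lie at opposite ends of their list.

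Of 12 Argonaute partners and regulators, 5 rose and 1 fell in total RNA, where 19.5% of all genes rose and 31% fell. In total over 4sU 1 rose and 4 fell, where 3.77% of all genes rose and 8.51% fell. Ankrd52, a subunit of the phosphatase that acts on Argonaute, rose from 29.5, 29.7 and 25.8 CPM to 44.3, 45.9, 48.7 and 48.1 CPM in total RNA (0.73 ± 0.10, adjusted p = 5.47e-09), while Ppp6c, its catalytic subunit, fell (-0.25 ± 0.07, adjusted p = 0.00289), a call lost with 3 alternatives. Limd1, a LIM protein of the silencing complex, rose by 0.50 ± 0.10 in total RNA (adjusted p = 2.22e-05), and its 4sU RNA overlapped between groups. Its relative Ajuba fell in 4sU RNA (-0.67 ± 0.08, adjusted p = 5.70e-10) and rose in total over 4sU (0.70 ± 0.10, adjusted p = 3.41e-06). Total RNA of Ajuba overlapped between groups, at 190 ± 1.5 and 194 ± 8.0 CPM (SD).

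Zswim8, the ligase receptor of target-directed miRNA decay, rose in 4sU RNA from 10.6 to 13.7 CPM in wild type to 21.7 to 29.8 CPM in Ddx6 KO (0.97 ± 0.17, adjusted p = 2.91e-06) and in total RNA (0.36 ± 0.10, adjusted p = 0.00139). Its fall in total over 4sU (-0.60 ± 0.20, adjusted p = 0.0323) was lost in 13 alternatives. Ipo8, an importin that binds Argonaute, rose in 4sU RNA (1.13 ± 0.11, adjusted p = 1.69e-13) and fell in total over 4sU (-0.77 ± 0.12, adjusted p = 1.01e-05). Ipo8, Snd1 and Fkbp4 are the 3 partner genes on chromosome 6, whose median rise is given above.

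Of 10 genes that act on let-7 precursors or on miRNA tails and decay, 2 rose and 5 fell in total RNA. Of all genes, 19.5% rose and 31% fell in this pool. Lin28b, which blocks let-7 maturation, had 21.9, 21.99 and 26.99 CPM in wild-type total RNA and 61.6, 61.3, 63.0 and 65.8 CPM in Ddx6 KO (1.41 ± 0.10, adjusted p = 9.64e-19), and its 4sU change was 1.74 ± 0.16 (adjusted p = 4.25e-14). Its paralogue Lin28a moved the other way, from 134, 136 and 142 CPM to 92.7, 78.0, 104 and 86.6 CPM (-0.61 ± 0.09, adjusted p = 5.55e-07). The uridylyltransferase Tut4 rose in 4sU RNA (0.46 ± 0.09, adjusted p = 4.83e-05), and its total RNA change was 0.07 ± 0.07 (adjusted p = 0.423). Snd1, a Tudor nuclease, rose in 4sU (0.69 ± 0.08, adjusted p = 2.98e-11) and less in total RNA (0.19 ± 0.06, adjusted p = 0.00461). In total over 4sU 0 of these 10 rose and 3 fell, where 3.77% of all genes rose and 8.51% fell. The exonuclease Dis3l2 fell in this measure (-0.51 ± 0.15, adjusted p = 0.0153), which 6 alternatives did not give. Tut4 fell as well (-0.39 ± 0.12, adjusted p = 0.0167), which 7 alternatives did not give. Snd1 fell too (-0.49 ± 0.10, adjusted p = 0.000202), a call that every alternative gave. Tsn fell in total RNA (-0.28 ± 0.06, adjusted p = 0.000268), lost with library size only (-0.12, adjusted p = 0.121), as did Tent2 (-0.29 ± 0.12, adjusted p = 0.0392), whose call was lost in 12 alternatives.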

How the data were processed

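RNA labelled with 4sU and total RNA were sequenced from 3 wild-type and 4 Ddx6 KO cultures. Per the labels and methods, the authors trimmed reads with cutadapt 1.14, aligned them with STAR 2.5.3a to mm10, kept unique alignments, and counted stranded reads per gene with featureCounts 1.5.3 on Gencode M14. The deposited values are raw counts per gene and a gene length in bases (other). The 4sU libraries were read in a single-end and a paired-end run, whose counts were summed.

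Genes that reached 3 CPM in 3 or more libraries entered the test, made with edgeR 4.0.16 (R 4.3.3; quasi-likelihood, robust, TMM) in a genotype by assay model over all 14 libraries. SE is the absolute log2 change over the square root of F. Log2 ratios used a pseudocount of 0.5 CPM. DESeq2 1.42.0 and limma 3.58.1 were alternatives, beside other scalings, filters, runs, clones, blocks and each culture left out in turn. The members of the list hold 86 to 1368 counts in a 4sU and 245 to 2134 in a total library. Simulated data over 14383 genes had changes planted in genes drawn at random from those tested, with all other genes unchanged. A 1.5-fold change was recovered for 58% of planted genes in 4sU, 59.2% in total RNA and 35.4% in total over 4sU. These shares depend on counts and on how many genes change, so they are not rates for the members of the list.

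The 4sU and total libraries of a culture were taken as a pair by replicate number, since the methods say that the extracted RNA was split. Their deviations from group means correlated by 0.00377 to 0.117 over 10244 genes. With culture as a block, which can be fitted only for total over 4sU, no call on the 10 genes changed in that comparison. Replicate libraries correlated with Spearman rho 0.982 to 0.987 in 4sU and 0.992 to 0.995 in total RNA, so none was a copy of another. 3′ UTRs were those of the APPRIS principal transcript in Gencode M21, which has the same genome build. Seed matches were searched on the mRNA strand only; ESCC and miR-17 matches can overlap. Named are the 10 genes, Ddx6, at most 3 rising and 3 falling genes per partner list and comparison among those past the threshold, the 3 genes most like the leading member, and genes whose exons overlap a member's. Uncalled partners named beside these, and Ago4, were chosen after their values were seen. The members and lists were chosen with earlier results of these data known. Polysome data and Dgcr8 KO cells are not analysed here.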

Additional observations from a re-analysis of the deposited data

Results flagged for a closer look

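Among 30 sets of 4 Ddx6 KO cultures (10 genes in 4sU, total RNA and total over 4sU), 2 had a culture apart from the other 3 by more than Dixon's critical value for 4 samples, where chance gives about 1.5 of 30. For Drosha, total over 4sU was 0.28 in clone 1 replicate 2 and 0.40 to 0.42 in the others, with a gap of 0.881 of the whole range. For Tnrc6b, total over 4sU was 0.01 in clone 1 replicate 1 and 0.21 to 0.25 in the others, with a gap of 0.844 of the range. Neither gene had a change in total over 4sU that passed the test, with all cultures or without the culture named.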

How the results depend on the processing

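The 10 genes gave 30 changes, each recomputed under 18 alternatives (19 for total over 4sU): 484 values kept direction and side of the threshold, 21 lost the call, 10 gained one and 35 changed sign. No called change turned, but Drosha in 4sU, uncalled, turned and passed with library size only (0.20, adjusted p = 0.0139, edgeR). The calls on Tnrc6a in all comparisons, Tnrc6b and Ago3 in 4sU, and Tnrc6b, Ago2 and Xpo5 in total RNA were given by every alternative. The count of 2 changes in total over 4sU was 1 with DESeq2, TMM within each assay, no filter, a floor of 3 CPM in all libraries of either assay, the re-sequencing run only and clone 2 only, and 1 to 2 with a culture left out, since Ago3 was lost. It was 3 with library size only, where Drosha passed too. The count past 2-fold in total RNA was 1 with library size only. The median total over 4sU of the 10 genes in Ddx6 KO was 0.33 and became 0.45 with the re-sequencing run only. The cause was not tested.

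Wild-type and Ddx6 KO replicate numbers only share a number: same-numbered libraries correlated by 0.0127 in 4sU and 0.0287 in total RNA on average, and 2 of 8 Ddx6 KO libraries correlated best with the wild-type library of their number. With the replicate block the counts were 4, 7 and 2, as without it, with Dgcr8 gained (0.17, adjusted p = 0.0474) and Ago3 lost (0.22, adjusted p = 0.0632, edgeR) in total RNA.

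Changes of sign, in 4sU unless stated, were these. With library size only, Dgcr8 was 0.17, Drosha 0.20, Xpo5 0.10, Mir17hg 0.040, and Dicer1 in total RNA 0.076. With no filter, Dgcr8 was 0.022, Drosha 0.052 and Dicer1 in total RNA 0.020. With TMM within each assay, Dicer1 in total RNA was 0.011 and Ago2 in total over 4sU 0.015. With the replicate block, Dgcr8 was 0.014, Drosha 0.016 and Tnrc6c -0.016. With DESeq2, Ago1 was -0.027 and Tnrc6c -0.028. With the single-end run, Dgcr8 was 0.0056, Ago1 -0.039 and Tnrc6c -0.035. With the re-sequencing run, Drosha was 0.028 and Ago1 in total over 4sU -0.027. With clone 1, Ago1 was -0.0072 and Tnrc6c -0.027, and with clone 2 Drosha was 0.036. With a culture left out, Dgcr8 ranged from -0.079 to 0.029, Drosha from -0.026 to 0.034, Ago1 from -0.036 to 0.058, Ago1 in total over 4sU from -0.0059 to 0.137 and Tnrc6c from -0.072 to 0.062. Depth limits Ago3 most, with as few as 86 counts in a 4sU library.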

Other observations

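The host genes of miRNAs were a further list, of which 5 of 6 were tested. Mir22hg, the host of miR-22, rose in 4sU RNA (0.84 ± 0.15, adjusted p = 6.63e-06, edgeR) and in total RNA (0.91 ± 0.24, adjusted p = 0.000978). Mcm7, a replication factor whose introns hold miR-106b, miR-93 and miR-25, fell in 4sU (-0.57 ± 0.06, adjusted p = 7.05e-13) and in total RNA (-0.54 ± 0.05, adjusted p = 5.93e-13). Mir17hg, the host of miR-17 and miR-20a, fell in 4sU (-0.17 ± 0.06, adjusted p = 0.0343), which 9 alternatives did not give. Mirg gave 0.20 ± 0.10 in total RNA (adjusted p = 0.108). These are host transcripts, and mature miRNAs were not measured.

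H19, an imprinted RNA that holds miR-675, had 4.45, 5.58 and 5.21 CPM in wild-type total RNA, 31.4 and 36.5 CPM in clone 1 and 5.52 and 7.85 CPM in clone 2. The log2 difference of clone 2 from clone 1 was -2.36 ± 0.19 (adjusted p = 1.44e-14), so the pooled rise of 1.99 ± 0.75 (adjusted p = 0.0476) rested on clone 1 and was lost in 8 alternatives. None of the 10 pathway genes showed such a difference between clones.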
